A study of Homo sapiens with 9 samples.

Results

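GANP siRNA was set directly against NXF1 siRNA in HCT116 cells, a human colorectal carcinoma line, using the arrays that the sample labels gave to these transfections. They are 6 of the 9 arrays of the series: 3 with GANP siRNA and 3 with NXF1 siRNA, each pair taken from 1 of 3 depletion experiments and joined by the experiment number in the title. The other 3 arrays came from cells given control siRNA, an oligonucleotide that differs from the GANP siRNA at a pair of bases, and they served only to tell which depletion had moved. All 9 arrays measured cytoplasmic RNA, released by digitonin, 72 h after transfection. Each protein was targeted with a single siRNA, so an effect of an siRNA on other transcripts cannot be told apart from depletion of its target. After filtering, 13117 genes were compared, and every difference below is the log2 signal with GANP siRNA minus that with NXF1 siRNA.

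Messenger RNAs leave the nucleus bound to NXF1 and its partner NXT1, the principal carrier of bulk mRNA through the nuclear pore channel. GANP is the scaffold of TREX-2, a complex at the nuclear basket of the pore that also holds PCID2, ENY2, SEM1 and centrins, and which passes mRNA particles towards the channel. The direct comparison asks which cytoplasmic transcripts responded differently to loss of the scaffold and loss of the carrier. Transcription and decay also set the amount of a cytoplasmic mRNA, and in RNA from whole cultures a lower level in every cell and a loss from some cells cannot be told apart. The arrays received equal RNA and were quantile normalised, so a difference is relative to the other transcripts of an array, and a loss shared by all transcripts is not seen.

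The targeted gene was examined first. MCM3AP, which encodes GANP, had log2 signals of 8.59, 8.80 and 8.76 after GANP depletion in experiments 1 to 3, against 9.65, 9.70 and 9.82 after NXF1 depletion. All 3 GANP siRNA arrays lay below all 3 NXF1 siRNA arrays, and the difference was -1.003 (standard error 0.07, adjusted p = 2.0e-04, limma). NXF1 mRNA itself was not analysed here, since no probe is annotated with that symbol. Among the colon epithelium markers, 6 of 9 were measured (EPCAM, KRT8, KRT18, KRT19, CDH1 and CDX2), and KRT18 reached log2 signals of 14.97, 14.94 and 14.95 with GANP siRNA and 15.34, 15.30 and 15.35 with NXF1 siRNA. Of these 6 markers 3 were called lower with GANP siRNA and 0 higher (50% and 0%, against 10.5% and 13.2% of all genes). The median was -0.30, and the 3 were EPCAM (-0.54), KRT18 (-0.38) and KRT8 (-0.27). The KRT8 call was lost without experiment 2 or 3 and with no replicate block. Of the fibroblast markers 2 of 6 passed the filter and of the blood cell markers 3 of 6, and among these only CD14 was called (-0.31), a call lost without experiment 2.

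Cytoplasmic transcripts differed widely between the depletions. With GANP siRNA 1738 genes were higher (13.2% of the genes tested) and 1371 were lower (10.5%) than with NXF1 siRNA, where a gene was called if its adjusted p was under 0.05 and its log2 difference beyond 0.25. The median difference was 0.39 for the higher genes, -0.37 for the lower genes and -0.001 over all genes tested. Differences beyond 1 were found in 37 of the higher and 18 of the lower genes. The sign was the same in all 3 experiments for 1737 of the higher and 1371 of the lower genes, and the 6 arrays did not overlap for 1584 and 1197. The calls rest on these same differences, so a shared sign is no separate support. Of the 10008 genes not called, 4279 also kept 1 sign. Over all genes tested, the GANP siRNA arrays lay entirely above the NXF1 siRNA arrays for 18.5% and entirely below for 16.2%. The counts fell to 1058 and 708 without experiment 2.

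**Figure D1:**
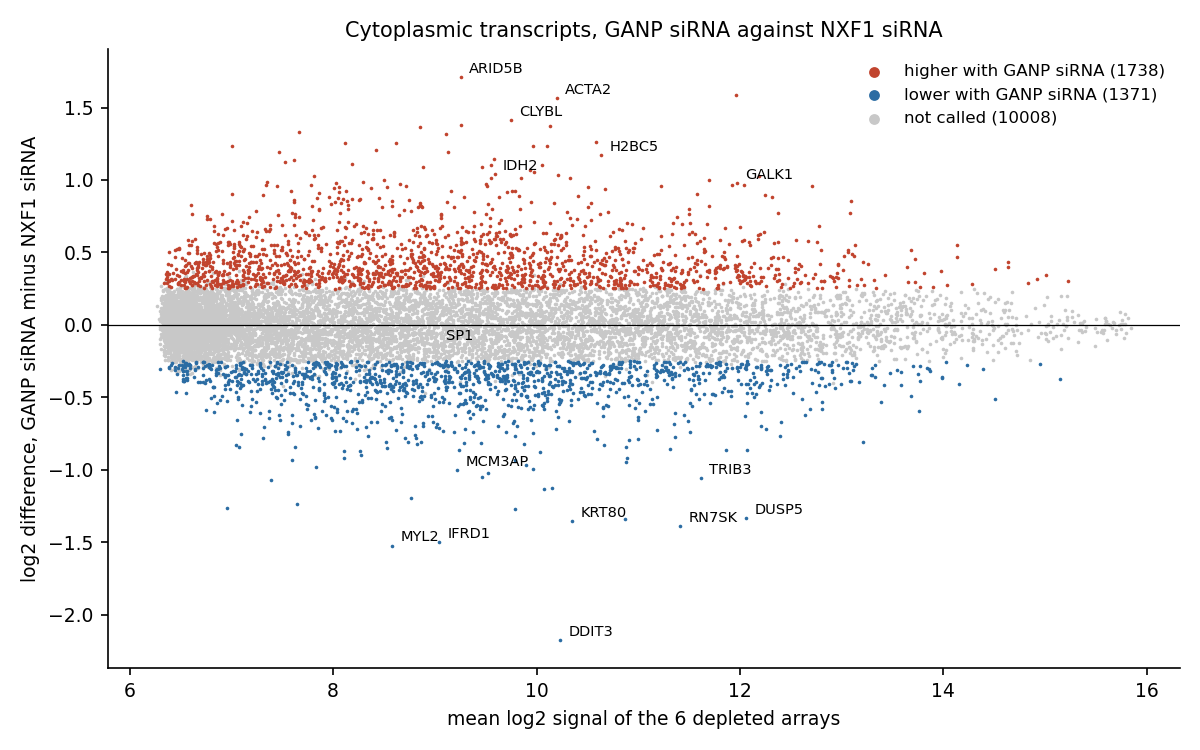
Difference between GANP siRNA and NXF1 siRNA (log2, vertical axis) against the mean log2 signal of the 6 depleted arrays (horizontal axis), with 1 point per gene. The 1738 higher genes are red and the 1371 lower genes blue, and DDIT3 lies lowest at -2.17 while ARID5B lies highest at 1.71.

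Among the genes higher with GANP siRNA, the largest difference was in ARID5B, which encodes a DNA-binding subunit of a histone demethylase complex. Its log2 signals were 9.97, 9.9995 and 10.36 with GANP siRNA and 8.40, 8.13 and 8.68 with NXF1 siRNA, against 9.12, 9.28 and 9.47 with control siRNA. The control arrays lay between the depleted groups in every experiment, and the difference of 1.71 (standard error 0.08, adjusted p = 6.4e-05, limma) is 3.27-fold. ACTA2, smooth muscle actin, gave 11.04, 11.02 and 10.88 with GANP siRNA and 9.57, 9.37 and 9.30 with NXF1 siRNA, a difference of 1.57 (standard error 0.07). It too lay apart from control siRNA (10.46, 10.30 and 10.22) in both directions. CLYBL, a mitochondrial citramalyl-CoA lyase, gave 10.33, 10.50 and 10.54 with GANP siRNA, against 9.04, 8.998 and 9.09 with NXF1 siRNA, a difference of 1.41 (standard error 0.07).

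The remaining genes among the 12 largest rises covered several roles. DDIT4L, an inhibitor of mTOR signalling, was higher by 1.38, NDRG4 by 1.36, LEMD1, a cancer-testis antigen, by 1.33, and CPT1C, a brain isoform of carnitine palmitoyltransferase, by 1.32. CNFN, a protein of the cornified envelope, differed by 1.26, the interferon-induced RNA-binding protein IFIT1 by 1.25 and ZCCHC12, a zinc finger coactivator, by 1.25. For DDIT4L the log2 signals were 9.93, 9.96 and 9.96 with GANP siRNA and 8.78, 8.52 and 8.42 with NXF1 siRNA, against 10.15, 10.26 and 10.23 with control siRNA. Its GANP siRNA arrays lay close to control siRNA and its NXF1 siRNA arrays far below. TMSB15A and TMSB15B, which encode near-identical thymosin beta proteins, differed by 1.59 and 1.37, and their probes may not separate the pair. Of the other 3 TMSB15B probes, those at 1.42 and 0.30 were called higher and the third, at -0.01, was not called. NDRG4 and IFIT1 each had a further probe that was not called, at 0.00 and 0.07.

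Among the genes lower with GANP siRNA, DDIT3 stood furthest away. DDIT3 encodes CHOP, a transcription factor of the unfolded protein and integrated stress responses. Its log2 signals were 9.11, 8.99 and 9.33 with GANP siRNA, 11.09, 11.33 and 11.54 with NXF1 siRNA and 8.55, 8.32 and 8.62 with control siRNA. Both depletions lay above control siRNA, NXF1 siRNA by far more, and the difference between them was -2.17 (standard error 0.08, adjusted p = 6.4e-05, limma), which is 4.51-fold lower with GANP siRNA. MYL2, the regulatory light chain of ventricular myosin, gave 8.17, 7.65 and 7.64 with GANP siRNA, against 9.55, 9.11 and 9.37 with NXF1 siRNA, a difference of -1.52 (standard error 0.08).

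IFRD1, an interferon-related developmental regulator, gave 8.11, 8.46 and 8.30 with GANP siRNA, 9.71, 9.90 and 9.76 with NXF1 siRNA and 8.34, 8.48 and 8.25 with control siRNA. Only the NXF1 siRNA arrays departed from control siRNA, by a difference of -1.50 between the depletions (standard error 0.07), but a second IFRD1 probe gave 0.26 and was not called. KRT80, a type II keratin, differed by -1.35 (with an uncalled second probe at -0.24), the stress cytokine GDF15 by -1.34 and DUSP5, a nuclear phosphatase that switches off ERK, by -1.33. The membrane protein EMP1 differed by -1.27, the siderophore-binding lipocalin LCN2 by -1.24, TMEM79 by -1.19 and the AP-1 subunit FOSL1 by -1.13. The small nuclear RNAs RN7SK (-1.39) and RNU2-1 (-1.27), which have many copies in the genome, completed the 12 largest falls.

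**Figure D2:**
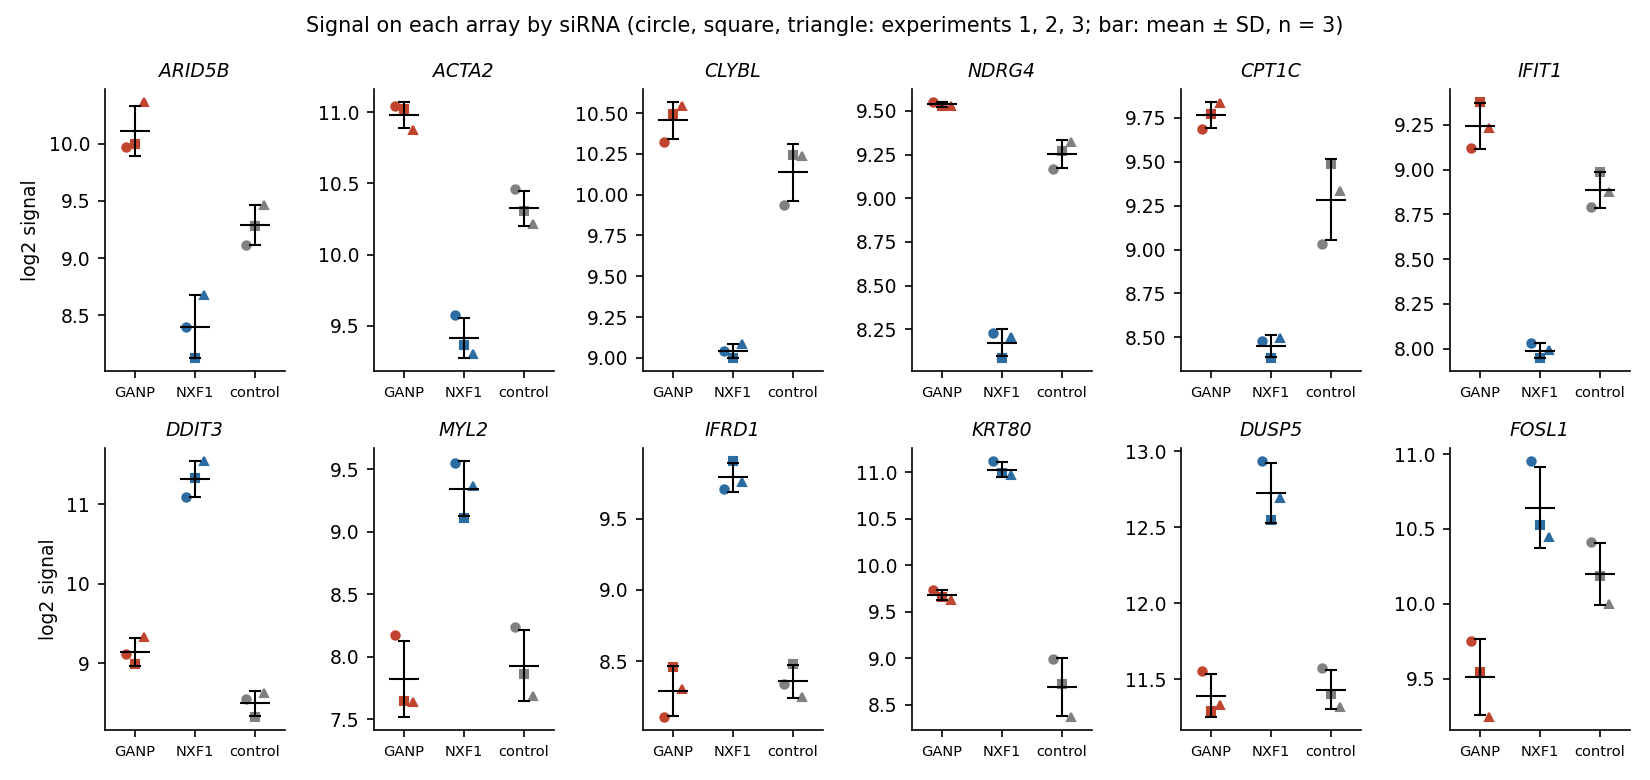
Log2 signal on each array for 6 of the transcripts most higher (upper row) and 6 of those most lower (lower row) with GANP siRNA, with GANP siRNA (red), NXF1 siRNA (blue) and control siRNA (grey) from left to right and symbols for experiments 1 to 3. Bars give the mean and SD of 3 arrays. The genes were taken from those whose GANP siRNA and NXF1 siRNA arrays do not overlap, so the gap in all 12 panels follows from that choice.

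The control arrays were then used to ask which depletion had moved. Against control siRNA, GANP siRNA raised 9.1% of genes and lowered 8.49%, while NXF1 siRNA raised 13.7% and lowered 15.8%. These comparisons share arrays with the direct one, so the following counts are a description with no test. Of the 1738 genes higher with GANP siRNA, 301 (17.3%) were up after GANP siRNA alone and 868 (49.9%) were down after NXF1 siRNA alone. A further 78 (4.49%) moved in opposite ways, 135 (7.77%) were down after both, 22 (1.27%) were up after both and 334 (19.2%) were called in neither. Of the 1371 genes lower with GANP siRNA, 179 (13.1%) were down after GANP siRNA alone and 715 (52.2%) were up after NXF1 siRNA alone. Another 10 (0.729%) moved in opposite ways, 131 (9.56%) were up after both, 30 (2.19%) were down after both and 306 (22.3%) were called in neither. The class of genes down after GANP siRNA alone fell to 118, 74 and 85 without experiments 1, 2 and 3, and that of genes up after GANP siRNA alone to 196 and 177 without experiments 2 and 3. With no replicate block they were 103 and 199. The classes set by NXF1 siRNA alone fell to 565 and 391 without experiment 2.

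**Figure D3:**
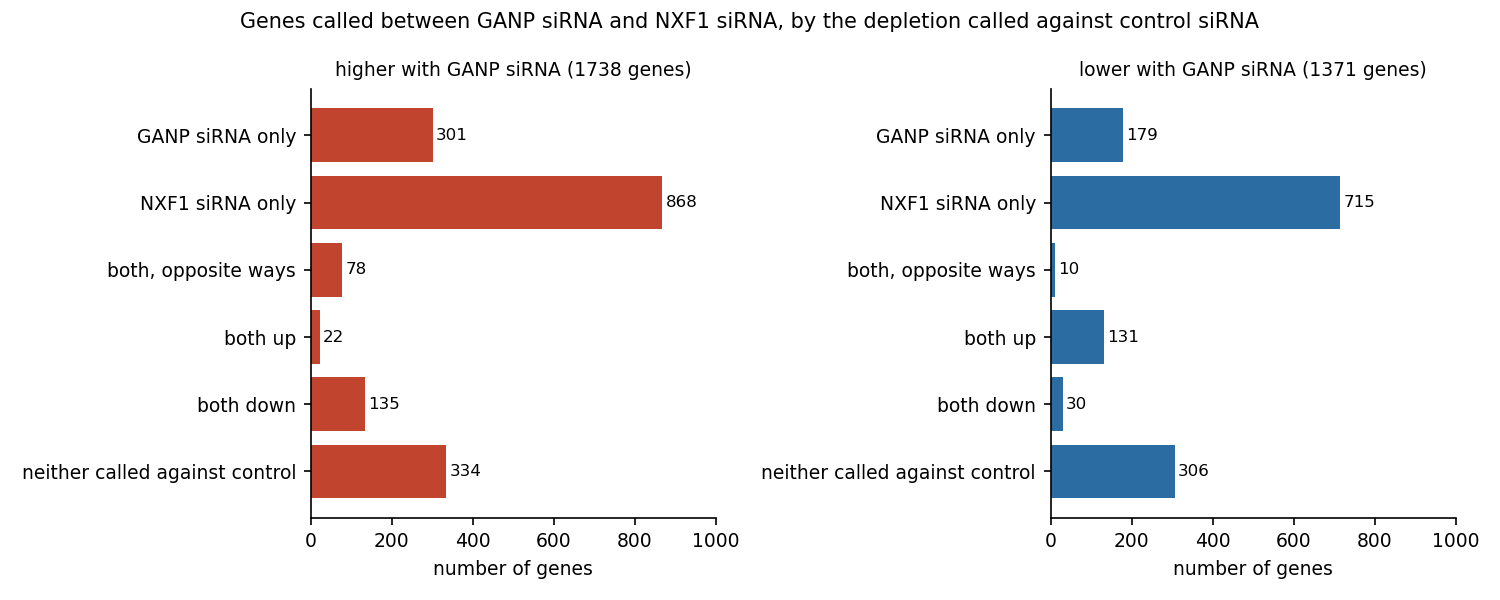
Number of genes (horizontal axis) higher (left, red) or lower (right, blue) with GANP siRNA than with NXF1 siRNA, sorted by which depletion was called against control siRNA. The longest bars are those of genes called after NXF1 siRNA only, 868 and 715.

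Examples of each class follow by smallest adjusted p. ACSM3, a mitochondrial medium-chain acyl-CoA synthetase, fell only after NXF1 siRNA. It gave 8.80, 9.18 and 9.10 with GANP siRNA, 7.58, 7.98 and 7.88 with NXF1 siRNA and 8.69, 9.01 and 8.87 with control siRNA, so that the GANP siRNA arrays stayed near control siRNA and the difference was 1.21 (standard error 0.07). AKR1C3, an aldo-keto reductase of steroid metabolism, rose only after GANP siRNA. Its values were 8.43, 8.71 and 8.52 with GANP siRNA, 7.61, 7.80 and 7.77 with NXF1 siRNA and 7.44, 7.67 and 7.66 with control siRNA, a difference of 0.83 between the depletions. CLIC3, a chloride intracellular channel protein, rose after both, further after GANP siRNA (10.76, 10.95 and 10.82) than after NXF1 siRNA (9.74, 9.78 and 9.96), with control siRNA at 9.01, 9.20 and 8.90. CD24, a surface glycoprotein, fell after both, and its 1.43 fall with NXF1 siRNA exceeded the 0.46 fall with GANP siRNA on the log2 scale, a difference of 0.97 between the depletions.

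On the lower side, MALT1, a paracaspase of NF-κB signalling, fell only after GANP siRNA, to 9.01, 9.12 and 8.87, against 9.67, 9.93 and 9.62 with NXF1 siRNA and 9.58, 9.65 and 9.64 with control siRNA. CALB2, the calcium-binding protein calretinin, had the same pattern with a difference of -0.70 between the depletions. TEX261 and CIPC, a repressor of the circadian clock, fell after both depletions and further after GANP siRNA, with differences of -0.87 and -0.55. TNFRSF12A, the receptor of TWEAK, moved in opposite ways: 9.41, 9.79 and 9.56 with GANP siRNA and 10.69, 10.87 and 10.58 with NXF1 siRNA lay on either side of 9.83, 10.08 and 9.88 with control siRNA. HMGA1, an architectural chromatin protein, behaved likewise with -0.81, although its further probes gave -0.18 and -0.06 and were not called. FOSL1, at 9.75, 9.54 and 9.24 with GANP siRNA and 10.95, 10.53 and 10.45 with NXF1 siRNA, had its control siRNA arrays at 10.41, 10.18 and 9.996.

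The transcripts followed individually in the study were set side by side in the same way. SP1, RPS23, ARPP19, LLGL, AXIN2 and IDH2 were picked in the paper as targets from these same arrays. Their pattern below follows from that choice and is no separate support. EXOSC6 was named GANP-dependent there and GALK1 and TST GANP-independent, and the same caution applies to them. SP1, a general transcription factor, had 8.91, 9.06 and 8.91 with GANP siRNA and 9.17, 9.06 and 9.05 with NXF1 siRNA, against 9.85, 10.13 and 10.08 with control siRNA. The depleted arrays overlapped and lay below every control array, and the difference was -0.13 (95% interval -0.31 to 0.04, adjusted p = 0.24, limma). RPS23, a ribosomal protein, differed by 0.20 (0.02 to 0.38, adjusted p = 0.10, limma) and EXOSC6, an exosome subunit, by -0.13 (-0.29 to 0.03, adjusted p = 0.20). ARPP19, an inhibitor of the mitotic phosphatase PP2A, differed by -0.24 (-0.40 to -0.08, adjusted p = 0.039, limma), short of the fold threshold, and passed it at -0.30 when its probes were averaged. In contrast, GALK1, galactokinase, was higher with GANP siRNA, at 12.35, 12.46 and 12.57, than with NXF1 siRNA, at 11.44, 11.47 and 11.54, and its control siRNA arrays (12.42, 12.41 and 12.45) lay among the GANP siRNA arrays. Its difference was 0.98 (standard error 0.07, adjusted p = 2.0e-04, limma). TST, the mitochondrial sulphurtransferase rhodanese, differed by 1.03, IDH2, the mitochondrial NADP-dependent isocitrate dehydrogenase, by 1.04, LLGL1, a cell polarity protein, by 0.95 and AXIN2, a Wnt target and inhibitor, by 0.93, with no overlap between the depleted arrays for any of them. Over all genes, 525 were down after both depletions and not called between them.

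Stress response transcripts had the largest share of members lower with GANP siRNA among the 42 gene lists. Of 37 measured ATF4 and CHOP targets, 20 were lower and 3 higher with GANP siRNA (54.1% and 8.11%, against 10.5% and 13.2% of all genes), with a median difference of -0.28. Against control siRNA, 6 were up and 2 down after GANP siRNA and 21 were up and 4 down after NXF1 siRNA. GDF15 gave 10.29, 9.69 and 10.63 with GANP siRNA, 11.51, 11.45 and 11.67 with NXF1 siRNA and 9.94, 9.45 and 9.43 with control siRNA. TRIB3, a pseudokinase induced by CHOP, gave 11.10, 11.11 and 11.06 with GANP siRNA, 12.17, 11.96 and 12.29 with NXF1 siRNA and 11.21, 11.18 and 11.18 with control siRNA, so that its GANP siRNA arrays lay just below control siRNA. DDIT4, an mTOR inhibitor also known as REDD1, differed by -0.87 (standard error 0.09).

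The amino acid transporters and enzymes of this list, named after their values were seen, included SLC7A5 (-0.86), SLC7A11 (-0.78), SLC3A2 (-0.66) and ASNS, asparagine synthetase (-0.33). The members that were higher were CTH (0.52) and SHMT2 (0.32), enzymes of cysteine and glycine synthesis, and the transcription factor CEBPB (0.27). ATF4, the factor itself, had a difference of -0.16 (95% interval -0.34 to 0.02) and was not called. The count of 20 ranged from 17 to 18 when an experiment was left out and was 14 with no replicate block, and the 3 that were higher were 1 without experiment 2.

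Promoters are shown for members of the stress and ribosome biogenesis lists because their letters can be set against the measured differences. RefSeq promoter windows (GRCh38.p14), which run 250 bases before to 50 bases after an annotated start, were found for 10636 of the 13117 genes, and a gene counted if any of its windows held a match on either strand. The core of the C/EBP-ATF response element, TGATGNAA, occurred in 12 of 31 ATF4 and CHOP targets with a window (38.7%), against 3.06% of all genes with a window. It was found in 6 of the 18 members lower with GANP siRNA (33.3%) and in 6 of the 13 others (46.2%), so the match did not sort the members by their difference. The ERSE of endoplasmic reticulum chaperones, searched as CCAAT and CCACG with 9 bases between them, occurred in 7 of 22 chaperones (31.8%) and 0.179% of all genes, in 3 of 9 that were lower and 4 of 13 others. The E-box CACGTG occurred in 27 of 73 ribosome biogenesis genes (37.0%) and 11.98% of all genes, in 8 of 22 that were lower and 19 of 51 others. Over all called genes TGATGNAA was in 3.06% of the higher and 3.41% of the lower genes. None of the motifs overlapped another in the windows below, in which capitals mark the match on either strand, for ATF3 (-0.72), a stress-induced transcription factor, CHAC1 (-0.51), which degrades glutathione, CALR (-0.56), the chaperone calreticulin, and MRTO4 (-0.42), a ribosome assembly factor.
ATF3 (chr1:212565157-212565456, + strand): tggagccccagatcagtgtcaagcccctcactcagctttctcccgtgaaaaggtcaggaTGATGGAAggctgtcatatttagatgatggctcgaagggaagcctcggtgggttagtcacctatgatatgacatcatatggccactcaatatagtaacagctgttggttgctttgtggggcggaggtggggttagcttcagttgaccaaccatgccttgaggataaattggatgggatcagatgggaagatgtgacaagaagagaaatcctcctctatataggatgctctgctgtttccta
CHAC1 (chr15:40953221-40953520, + strand): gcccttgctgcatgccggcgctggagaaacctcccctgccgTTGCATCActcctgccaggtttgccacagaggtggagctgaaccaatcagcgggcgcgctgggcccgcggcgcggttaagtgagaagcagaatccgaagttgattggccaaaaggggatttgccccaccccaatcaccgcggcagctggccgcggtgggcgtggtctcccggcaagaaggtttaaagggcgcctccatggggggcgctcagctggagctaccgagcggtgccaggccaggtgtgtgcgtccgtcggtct
CALR (chr19:12938359-12938658, + strand): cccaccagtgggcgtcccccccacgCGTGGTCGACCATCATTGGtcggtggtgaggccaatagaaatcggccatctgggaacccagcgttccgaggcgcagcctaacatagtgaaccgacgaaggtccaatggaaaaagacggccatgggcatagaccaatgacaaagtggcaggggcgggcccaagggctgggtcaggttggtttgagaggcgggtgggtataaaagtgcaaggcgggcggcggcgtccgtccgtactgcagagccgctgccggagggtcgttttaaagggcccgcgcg
MRTO4 (chr1:19251555-19251854, + strand): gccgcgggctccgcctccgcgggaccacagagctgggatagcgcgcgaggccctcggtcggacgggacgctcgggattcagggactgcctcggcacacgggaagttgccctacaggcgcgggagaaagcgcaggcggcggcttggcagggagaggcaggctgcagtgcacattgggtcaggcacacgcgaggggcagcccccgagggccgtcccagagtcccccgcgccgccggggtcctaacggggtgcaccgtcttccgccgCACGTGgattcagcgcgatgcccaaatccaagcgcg
The capitals in ATF3 and CHAC1 are the C/EBP-ATF core, on the plus and minus strand of the gene in that order, those in CALR the ERSE and those in MRTO4 the E-box.

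Genes of the endoplasmic reticulum and secretory pathway that were called were mostly lower with GANP siRNA, by amounts that differed between experiments. Of 23 measured chaperones of the endoplasmic reticulum, 9 were lower and 2 higher (39.1% and 8.7%, against 10.5% and 13.2% of all genes). Of 57 genes of translocation and early secretion 12 were lower and 4 higher (21.1% and 7.02%). SRPRB, which anchors the receptor of the signal recognition particle in the membrane, gave 10.29, 10.33 and 10.75 with GANP siRNA, 11.23, 11.56 and 11.12 with NXF1 siRNA and 10.27, 10.29 and 10.29 with control siRNA. Its GANP siRNA array of experiment 3 lay above those of experiments 1 and 2, and the difference was -0.85 (standard error 0.14, adjusted p = 0.0047, limma). TMED9, a cargo receptor, differed by -0.73, SPCS3, a signal peptidase subunit, by -0.73, and SELENOS, a selenoprotein of protein retrotranslocation, by -0.63.

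CALR had 8.80, 8.52 and 8.80 with GANP siRNA and 9.13, 9.35 and 9.31 with NXF1 siRNA. Of 17 tetraspanins, which organise proteins in the plasma membrane, 7 were lower and 0 higher (41.2% and 0%, against 10.5% and 13.2% of all genes). The differences were -0.58 for CD151, -0.55 for TSPAN5 and -0.50 for TSPAN6. Of 30 lysosomal proteins 6 were lower and 1 higher (20% and 3.33%). PPT1, a palmitoyl thioesterase, differed by -0.52, while SCARB2, a lysosomal membrane receptor, was the member higher with GANP siRNA (0.42). EPCAM, an epithelial surface glycoprotein, differed by -0.54, with 12.45, 12.34 and 12.82 with GANP siRNA against 13.04, 13.09 and 13.10 with NXF1 siRNA.

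The median difference of the chaperones was -0.20, -0.41 and -0.04 in experiments 1, 2 and 3, that of translocation and secretion -0.09, -0.21 and 0.04, that of tetraspanins -0.23, -0.46 and -0.09 and that of lysosomal proteins -0.12, -0.20 and 0.02. In each of these lists experiment 3 was nearest 0 and experiment 2 furthest below it. Without experiment 2 the lower counts were 3 chaperones, 5 genes of translocation and secretion, 3 tetraspanins and 2 lysosomal proteins, and without experiment 3 they were 13, 16, 8 and 8. Without experiment 1 they were 6 chaperones and 4 lysosomal proteins. With no replicate block they were 6, 7, 6 and 3. By comparison, the median of the ATF4 and CHOP targets was -0.31, -0.22 and -0.32 in the 3 experiments.

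**Figure D4:**
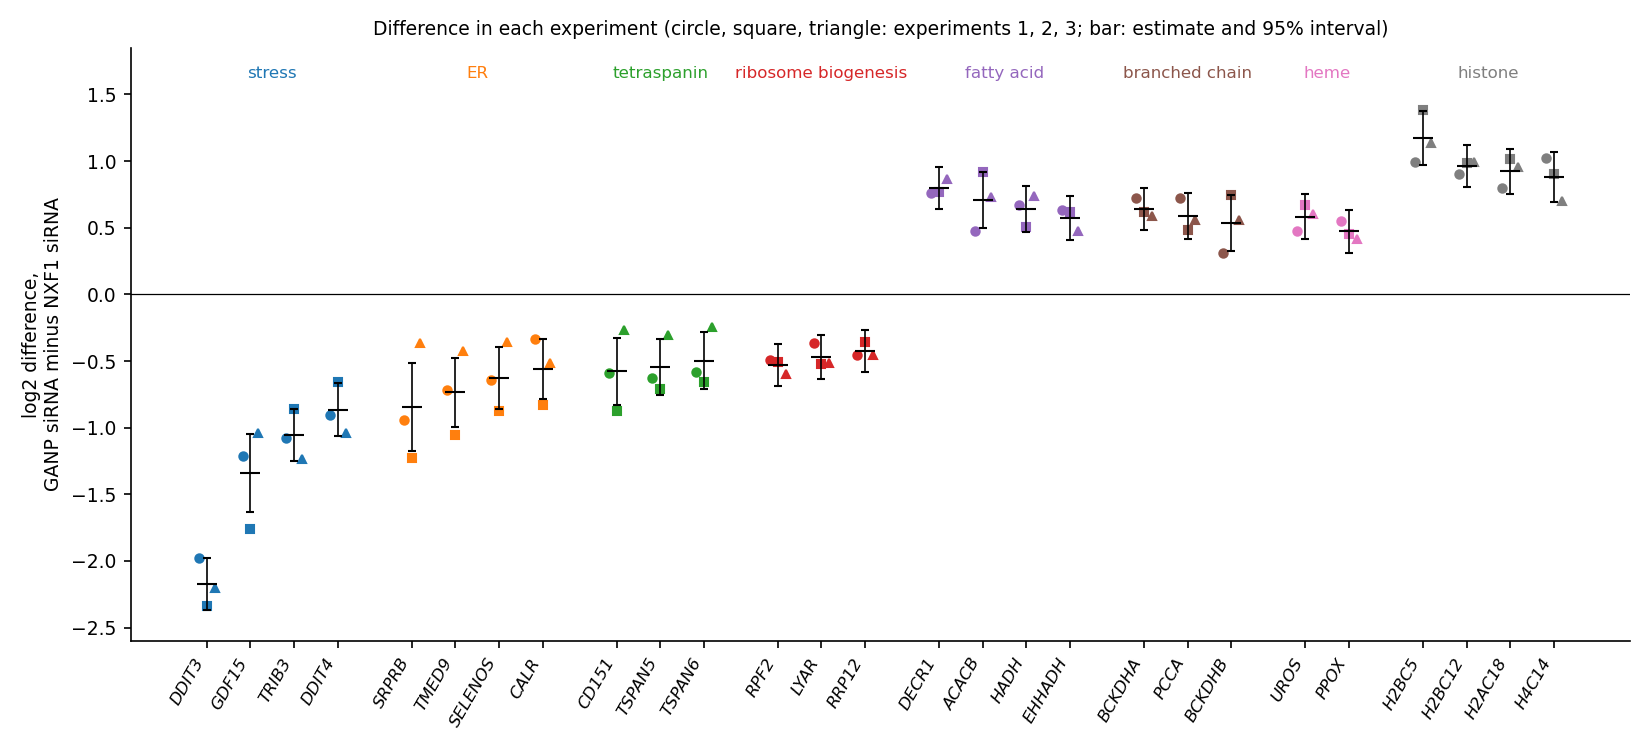
Difference between GANP siRNA and NXF1 siRNA (log2, vertical axis) in experiments 1, 2 and 3 (circle, square, triangle) for called members of 8 gene lists, with the estimate and its 95% interval as a bar. For CD151, TSPAN5, TSPAN6, SRPRB, TMED9 and SELENOS experiment 3 lies nearest 0. The histone, fatty acid and branched-chain genes shown were picked from members called higher and lie above 0 in every experiment. Called members that went the other way, in the stress, endoplasmic reticulum, ribosome biogenesis, fatty acid, heme and histone lists, are not shown.

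Factors that build ribosomes were lower with GANP siRNA where they were called, with 1 exception. Of 87 measured ribosome biogenesis factors, 26 were lower and 1 higher (29.9% and 1.15%, against 10.5% and 13.2% of all genes). Of the 87, 76 lay below 0, and the median of -0.16 was -0.15, -0.17 and -0.17 in experiments 1, 2 and 3. In this list the GANP siRNA side carried more calls against control siRNA, with 28 down after GANP siRNA and 10 down and 2 up after NXF1 siRNA. RPF2, a 5S particle assembly factor, had 13.19, 13.13 and 13.06 with GANP siRNA, 13.69, 13.63 and 13.65 with NXF1 siRNA and 13.35, 13.25 and 13.33 with control siRNA. Control siRNA thus lay between the depletions, whose difference was -0.53 (standard error 0.07, adjusted p = 0.0016, limma). Against control siRNA, RPF2 was called up after NXF1 siRNA (0.345) and was not called after GANP siRNA (-0.19). LYAR, a nucleolar zinc finger protein, differed by -0.47 and RRP12, which helps export preribosomal particles, by -0.42. The member that was higher was IMP3 (0.31), a call lost without experiment 1 or 3. The count of 26 fell to 8 without experiment 2, to 15 without experiment 3 and to 12 with no replicate block. Of the structural proteins of the ribosome, 4 of 68 cytosolic ones were higher and 2 lower (5.88% and 2.94%), among them RPL13A (0.55), RPL22 (0.36) and RPL36A (-0.51). Of 77 mitochondrial ones 4 were higher and 9 lower (5.19% and 11.7%). Without experiment 2, 4 of the mitochondrial proteins were lower, and without experiment 1 or 3, 2 of the cytosolic proteins were higher.

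In most lists of metabolic genes more members were higher than lower with GANP siRNA. Of 16 measured genes of branched-chain amino acid breakdown, 9 were higher and 0 lower (56.2%, against 13.2% of all genes), with a median of 0.30 that was 0.31, 0.39 and 0.28 in experiments 1, 2 and 3. BCKDHA, a subunit of the branched-chain ketoacid dehydrogenase, had 10.05, 9.88 and 9.92 with GANP siRNA, 9.33, 9.26 and 9.33 with NXF1 siRNA and 10.06, 10.04 and 10.02 with control siRNA. Its GANP siRNA arrays lay close to control siRNA and its NXF1 siRNA arrays below, with a difference of 0.64 (standard error 0.07, adjusted p = 8.6e-04, limma). PCCA, a propionyl-CoA carboxylase subunit, differed by 0.59. BCKDHB, the partner of BCKDHA, differed by 0.54, with further probes at 0.79 and 0.71, both called, and at -0.05, not called. ALDH6A1, a semialdehyde dehydrogenase, differed by 0.54 with an uncalled second probe at -0.07. Against control siRNA 10 of the 16 were down and 1 up after NXF1 siRNA, and 3 were up and 1 down after GANP siRNA.

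Of 42 genes of fatty acid oxidation and synthesis, 16 were higher and 4 lower (38.1% and 9.52%, against 13.2% and 10.5% of all genes). Their median was 0.21. DECR1, the mitochondrial dienoyl-CoA reductase, gave 11.65, 12.06 and 11.99 with GANP siRNA, 10.89, 11.30 and 11.12 with NXF1 siRNA and 11.30, 11.56 and 11.61 with control siRNA. In each experiment the control array lay between the depletions, which were 0.80 apart (standard error 0.07). HADH, of the oxidation cycle, differed by 0.64, EHHADH, of peroxisomal oxidation, by 0.57 and ACACB, an acetyl-CoA carboxylase, by 0.71. The 4 members that were lower were ACSL5 (-0.42), ELOVL1 (-0.42), HACD3 (-0.41) and ELOVL6 (-0.25), of fatty acid activation and elongation, and none of the list was lower without experiment 2. Against control siRNA 18 of the list were down after NXF1 siRNA and 4 after GANP siRNA. Of 31 genes of the TCA cycle and pyruvate metabolism 8 were higher and 0 lower (25.8%), a count that fell to 4 without experiment 2 and 5 with no replicate block. Against control siRNA, IDH2 was called only after NXF1 siRNA, as lower. IDH1 (0.58) and ACO1, cytosolic aconitase (0.41), were called only after GANP siRNA, as higher. PDK3 (0.56), with an uncalled second probe at 0.21, was called down after both.

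Of 34 genes of glycolysis, galactose use and the pentose phosphate pathway 10 were higher and 2 lower (29.4% and 5.88%). Beside GALK1 these included ALDOC, an aldolase (0.97), GALT, which acts after galactokinase (0.62), and PFKL, liver phosphofructokinase (0.59). ALDOC differed from the others in its side, with 12.42, 12.57 and 12.59 with GANP siRNA, 11.58, 11.42 and 11.68 with NXF1 siRNA and 11.55, 11.90 and 11.98 with control siRNA, so that GANP siRNA lay apart. Of 6 heme biosynthesis enzymes 4 were higher and 1 lower (66.7% and 16.7%), with UROS, uroporphyrinogen synthase, at 0.58, PPOX at 0.47 and FECH, ferrochelatase, at 0.41. The first enzyme, ALAS1, was the lower member at -0.34, a call lost without experiment 2. A second probe for ALAD, the fourth called as higher (0.46), was called lower (-0.42), and the FECH call was lost when its probes were averaged (0.24). Of 67 respiratory chain subunits 9 were higher and 3 lower (13.4% and 4.48%), close to and below the respective shares of all genes (13.2% and 10.5%). Without experiment 2 or 3 the counts were 5 higher and 1 lower.

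Replication-dependent histones that were called were mostly higher with GANP siRNA. Of 36 measured, 12 were higher and 2 lower (33.3% and 5.56%, against 13.2% and 10.5% of all genes), with a median of 0.08. Against control siRNA 13 were up and 0 down after GANP siRNA, and 6 were up and 0 down after NXF1 siRNA. H2BC5 gave 11.42, 11.38 and 10.87 with GANP siRNA, 10.42, 10.001 and 9.73 with NXF1 siRNA and 10.62, 10.15 and 9.69 with control siRNA. The NXF1 siRNA arrays overlapped control siRNA and the GANP siRNA arrays lay above both, with a difference of 1.17 (standard error 0.09, adjusted p = 2.4e-04, limma). H2BC12 differed by 0.96, H2AC18 by 0.92 and H4C14 by 0.88. The 2 that were lower were H4C2 (-0.60) and H4C1 (-0.44). Histone genes of 1 type have close copies that a probe may not separate. The count of 12 was 11 or 12 when an experiment was left out.

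Of 30 p53 targets 9 were higher and 1 lower (30% and 3.33%, against 13.2% and 10.5% of all genes). TP53INP1, a promoter of autophagy, gave 8.14, 8.11 and 8.16 with GANP siRNA, 7.54, 7.56 and 7.78 with NXF1 siRNA and 8.30, 8.31 and 8.20 with control siRNA. It lay below control siRNA in every experiment after both depletions, and further below after NXF1 siRNA. TP53I3, an oxidoreductase, gave 9.69, 9.56 and 9.28 with GANP siRNA, 9.18, 8.97 and 8.91 with NXF1 siRNA and 9.03, 8.79 and 8.47 with control siRNA, and rose after both. SESN1, a sestrin, differed by 0.51. The best-known targets CDKN1A, the p21 inhibitor, at 0.08 (95% interval -0.07 to 0.24), and MDM2, at 0.00 (-0.20 to 0.21), were not called. Both were picked once their values had been seen. The member that was lower was GADD45A (-0.32), a call lost without experiment 2.

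Of 39 interferon-stimulated genes 7 were higher and 1 lower (17.9% and 2.56%, against 13.2% and 10.5% of all genes), with a median of 0.08. Against control siRNA 19 were up and 2 down after GANP siRNA, and 12 were up and 4 down after NXF1 siRNA. IFIT1, whose second probe was not called (0.07), had the largest difference, with 9.12, 9.38 and 9.23 with GANP siRNA, 8.03, 7.95 and 7.99 with NXF1 siRNA and 8.79, 8.99 and 8.87 with control siRNA, and so lay above control siRNA in one depletion and below it in the other. UBE2L6, the ISG15-conjugating enzyme, differed by 0.56 and IFIT2 by 0.47. IRF7, the transcription factor that drives type I interferon genes, was the member that was lower, at 7.35, 7.13 and 7.50 with GANP siRNA, 7.97, 8.13 and 7.97 with NXF1 siRNA and 6.78, 6.43 and 6.77 with control siRNA.

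Immediate early and ERK-regulated transcripts were split. Of 32 AP-1 and immediate early genes 11 were lower and 5 higher (34.4% and 15.6%, against 10.5% and 13.2% of all genes). Their median was -0.19. JUN gave 9.41, 9.34 and 9.49 with GANP siRNA, 10.30, 10.29 and 10.55 with NXF1 siRNA and 9.42, 8.96 and 9.08 with control siRNA. Its NXF1 siRNA arrays lay above both other groups, with a difference of -0.97 (standard error 0.07, adjusted p = 2.4e-04, limma). KLF4, a Kruppel-like factor, differed by -0.83 and CCN2, a matricellular growth factor, by -0.74. The 5 that were higher were IER5 (0.59), ID3 (0.52), ID2 (0.51), JUND (0.40) and BTG1 (0.38), among which the ID proteins block basic helix-loop-helix factors. ID2 rose after both depletions, to 13.27, 13.31 and 13.39 with GANP siRNA and 12.84, 12.75 and 12.85 with NXF1 siRNA, above control siRNA at 12.39, 12.51 and 12.56.

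DUSP5 had 11.56, 11.29 and 11.33 with GANP siRNA, 12.94, 12.55 and 12.69 with NXF1 siRNA and 11.57, 11.40 and 11.32 with control siRNA. It was among 5 of 19 ERK feedback genes that were lower (26.3%), with EPHA2, an ephrin receptor (-0.58), and DUSP4, a second nuclear ERK phosphatase (-0.58). SPRY2, the Sprouty inhibitor, was 1 of 2 that were higher (10.5%), at 0.40. The 5 fell to 3 without experiment 3. Among keratins and epithelial junction genes 9 of 35 were lower and 5 higher (25.7% and 14.3%, against 10.5% and 13.2% of all genes). KRT80 gave 9.73, 9.66 and 9.63 with GANP siRNA, 11.12, 10.997 and 10.97 with NXF1 siRNA and 8.99, 8.72 and 8.36 with control siRNA, and KRT7 had the same order of groups with -1.05. A second KRT80 probe gave -0.24 and was not called. KRT23 went the other way, at 0.86. Without experiment 1 the 5 fell to 3, and with no replicate block the counts were 5 lower and 3 higher. Of 20 hypoxia-responsive genes 6 were lower and 1 higher (30% and 5%). P4HA1, a collagen prolyl hydroxylase, differed by -0.66 and the mitophagy receptor BNIP3L by 0.78. The 6 fell to 2 without experiment 2.

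In lists of mRNA synthesis and export machinery, the share lower with GANP siRNA lay on both sides of 10.5%, that of all genes. Of 26 measured mRNA export factors 4 were lower and 1 higher (15.4% and 3.85%). MCM3AP was the first of these, and POLDIP3 (-0.29), FYTTD1 (-0.27) and DDX39A (-0.27), all TREX-associated proteins, and SEM1 (0.28), a TREX-2 and proteasome subunit, were the others. Without experiment 2 the lower count was 1, and without experiment 3 it was 1. The other TREX-2 subunits ENY2 at 0.01 (95% interval -0.16 to 0.18) and PCID2 at -0.08 (-0.24 to 0.08), and the NXF1 partner NXT1 at -0.22 (-0.37 to -0.06), chosen after their values were seen, were not called. Of 28 nuclear pore genes 5 were lower and 0 higher (17.9% and 0%), with SEH1L, of the outer ring, at -0.50. The 5 fell to 2 and 3 without experiments 2 and 3. Of 69 core spliceosome genes 6 were lower and 2 higher (8.7% and 2.9%), although against control siRNA GANP siRNA lowered 11 of them and NXF1 siRNA 10. Of 37 hnRNP and SR proteins 4 were higher and 1 lower (10.8% and 2.7%), and against control siRNA GANP siRNA lowered 11 and NXF1 siRNA 14. HNRNPH2, a splicing regulator, differed by 0.57. Without experiment 2 or 3 the 4 fell to 2. POLR2A, the largest subunit of RNA polymerase II, was higher by 0.58, with 12.26, 12.35 and 12.40 with GANP siRNA, 11.74, 11.69 and 11.83 with NXF1 siRNA and 11.36, 11.65 and 11.74 with control siRNA.

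Of 49 genes of mitosis 12 were higher and 3 lower (24.5% and 6.12%), with HMMR, a spindle protein, at 0.55, the kinetochore subunit SPC24 at 0.43 and AURKB, the kinase of the chromosomal passenger complex, at -0.36. The 12 fell to 3 without experiment 2, to 8 without experiment 3 and to 7 with no replicate block, and the 3 that were lower to 1 without experiment 2 or 3 and with no replicate block. Of 59 DNA replication genes 7 were lower and 4 higher (11.9% and 6.78%), near and below the shares of all genes (10.5% and 13.2%), including RNASEH1 (-0.40) and CDC6, the origin licensing factor (-0.36). The 4 fell to 0 without experiment 2 and 1 without experiment 1, and the 7 fell to 4 without experiment 1 or 3.

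Lists of protein synthesis and turnover held calls in both directions or few calls. Of 32 aminoacyl-tRNA synthetases, which charge tRNAs, 6 were lower and 5 higher (18.8% and 15.6%, against 10.5% and 13.2% of all genes). QARS1, of glutamine, gave 13.02, 13.13 and 13.20 with GANP siRNA, 12.25, 12.47 and 12.58 with NXF1 siRNA and 12.82, 13.07 and 12.98 with control siRNA, whereas SARS1, of serine, differed by -0.43 and YARS1, of tyrosine, by -0.41. Without experiment 2 these counts were 4 and 3. Of 37 translation initiation factors 6 were lower and 2 higher (16.2% and 5.41%), with EIF5, a GTPase-activating protein of initiation, at -0.48, EIF1AX at -0.42 and the helicase EIF4A2 at 0.37, and none was higher without experiment 2. Of 36 proteasome genes 4 were lower and 0 higher (11.1% and 0%), and the lower share was near the 10.5% of all genes. The 4 included PSMD11 (-0.36) and PSMD14, a deubiquitinase of the lid (-0.31), and fell to 0 and 1 without experiments 2 and 3. Of 41 cytosolic and mitochondrial chaperones 4 were lower and 0 higher (9.76% and 0%), below the shares of all genes. Among them were HSPA14 at -0.44 and HSF1, the heat shock transcription factor, at -0.34. The 4 fell to 2 and 1 without experiments 2 and 3.

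Of 20 genes of cholesterol synthesis 5 were higher and 2 lower (25% and 10%, against 13.2% and 10.5% of all genes). LSS, lanosterol synthase, gave 9.96, 9.71 and 9.68 with GANP siRNA, 9.25, 8.95 and 9.26 with NXF1 siRNA and 9.73, 9.59 and 9.52 with control siRNA, so that NXF1 siRNA lay apart. TM7SF2, a sterol reductase, differed by 0.53 after rising with both depletions. The 2 lower genes became 0 without experiment 2, 1 without experiment 1 and 4 without experiment 3. Of 49 RNA polymerase II, TFIID and Mediator genes 7 were lower and 5 higher (14.3% and 10.2%, against 10.5% and 13.2% of all genes). The Mediator subunits MED10 (-0.46), MED8 (-0.45) and MED7 (0.56) went in both directions. In this list 2 and 3 were higher without experiments 2 and 3. CPSF1, a cleavage and polyadenylation factor, was the 1 call among 20 such genes (0.53). Of 25 actin and contractile genes 3 were higher and 2 lower (12% and 8%), below the shares of all genes (13.2% and 10.5%). Among them MYH10, a nonmuscle myosin, differed by 0.47 and TAGLN, an actin-binding protein, by -0.49. Without any 1 experiment 1 was lower, and without experiment 2, 2 were higher.

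**Figure D5:**
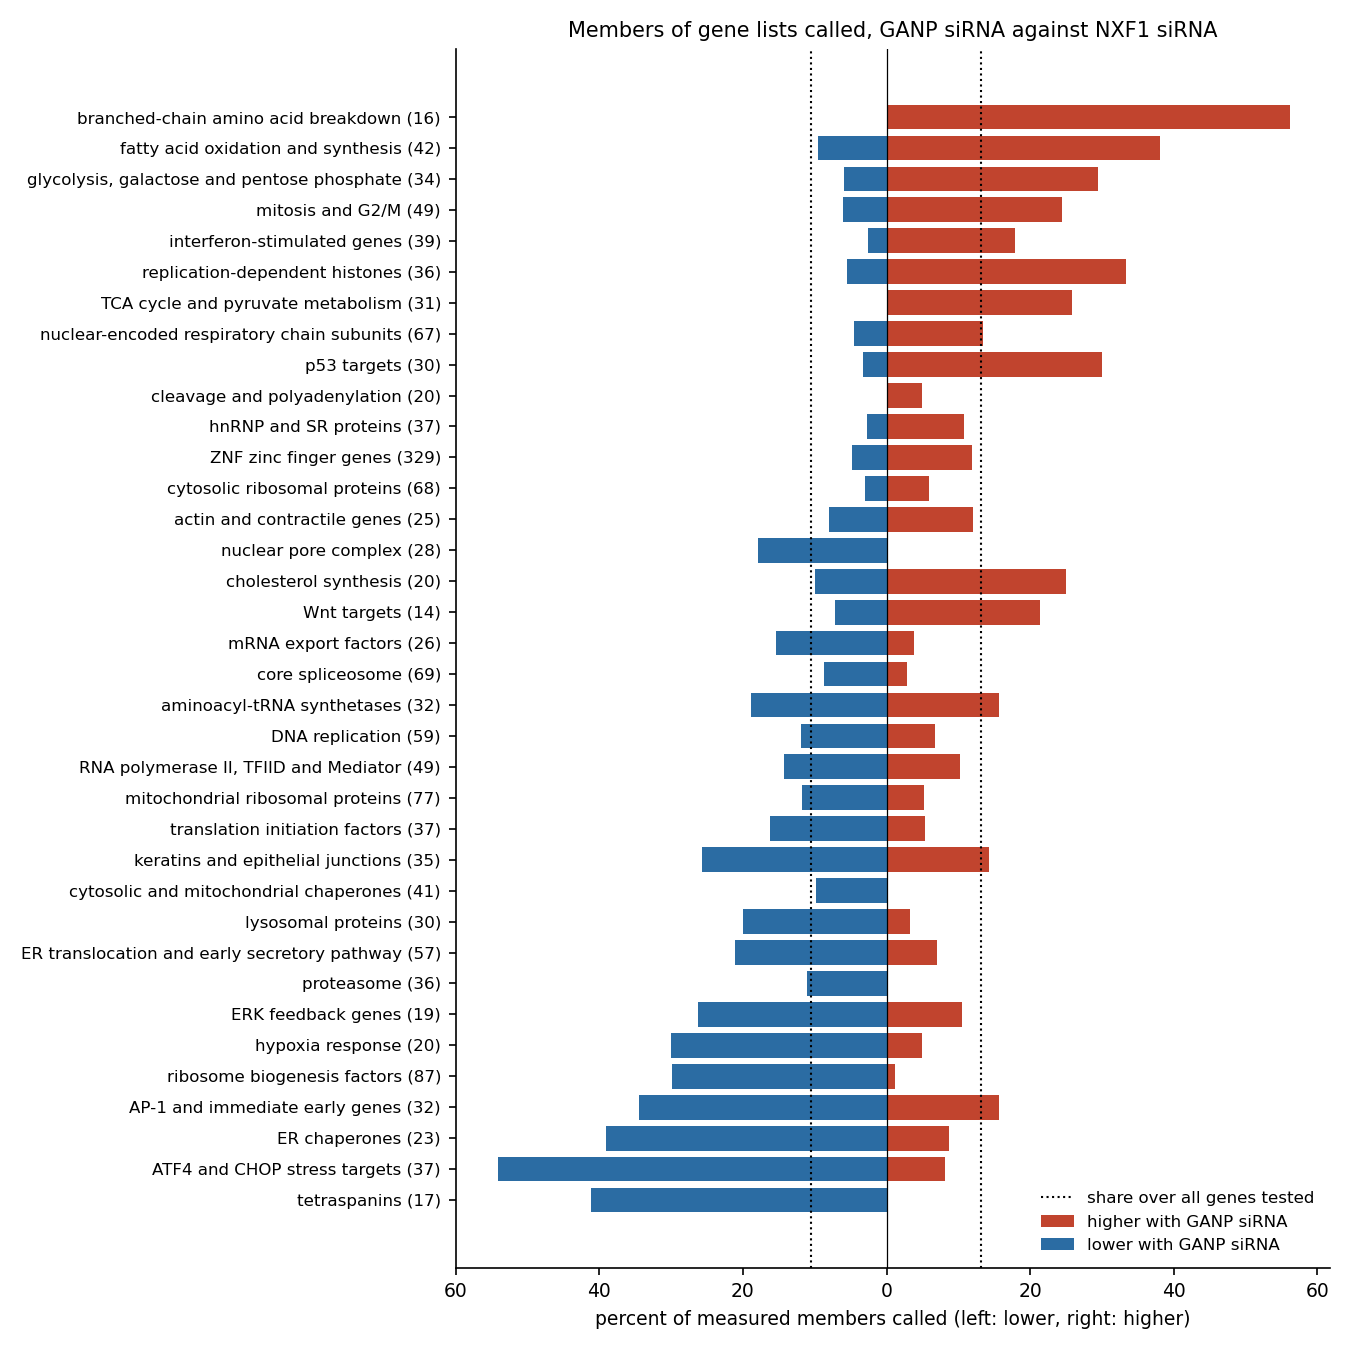
Share of measured members of gene lists that were higher (red, right) or lower (blue, left) with GANP siRNA than with NXF1 siRNA, in percent, for lists of 14 or more measured genes (number in brackets), ordered by median difference. Dotted lines mark the shares over all genes tested, 13.2% and 10.5%, and branched-chain amino acid breakdown reaches 56.2% higher while ATF4 and CHOP targets reach 54.1% lower.

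Small nuclear and nucleolar RNAs were lower with GANP siRNA where they were called. Of 30 small nucleolar RNAs 9 were lower and 0 higher (30% and 0%, against 10.5% and 13.2% of all genes). Of the 30, 24 lay below 0, over a range of -0.85 to 0.15. Of 6 small nuclear RNAs 3 were lower and 0 higher (50% and 0%). RN7SK, which holds the elongation factor P-TEFb inactive, gave 11.02, 10.55 and 10.59 with GANP siRNA, 12.13, 12.27 and 11.93 with NXF1 siRNA and 9.92, 9.58 and 9.29 with control siRNA. The groups did not overlap, and both depletions lay above control siRNA. RNU6ATAC, of the minor spliceosome, gave 7.75, 7.57 and 7.65 with GANP siRNA, 8.09, 8.43 and 8.43 with NXF1 siRNA and 7.09, 7.11 and 7.33 with control siRNA. RPPH1, the RNA of ribonuclease P, differed by -0.78. RNU2-1, of the major spliceosome, was dim, at 6.38, 6.19 and 6.41 with GANP siRNA, 7.52, 7.999 and 7.27 with NXF1 siRNA and 6.06, 6.15 and 5.93 with control siRNA, where the offset added to the signals shrinks differences.

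RN7SK stays largely in the nucleus, so its level may bear on the purity of the fraction. The paper checked its fractionation by qPCR of MALAT1, a predominantly nuclear RNA. For RN7SK the GANP siRNA array was the lower of the pair in all 3 experiments, and its part in the other differences was not tested. Which forms of the small RNAs and histone mRNAs the amplification labelled was not tested either. Of the other small RNAs, RN7SL1, the cytoplasmic RNA of the signal recognition particle, differed by 0.11 and RNU11 by 0.12, neither called, and TERC, the telomerase RNA, was higher by 0.31, a call lost without experiment 1 or 2. Of 323 long noncoding RNAs 23 were higher and 5 lower (7.12% and 1.55%), below the shares of all genes. Small nucleolar RNAs lie within introns of other genes, and their probes may also read the host transcript.

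The share of genes called depended on signal. When the genes were cut into 5 equal bins by mean control siRNA signal, from dim to bright, 3.24%, 10.6%, 17.8%, 19.2% and 15.3% of genes were higher and 2.97%, 8.04%, 13.9%, 15.4% and 11.9% were lower. In 5 bins of gene span in the RefSeq annotation, from short to long, 14.6%, 11.9%, 11.8%, 12.1% and 15.9% were higher and 10.5%, 12.4%, 11.6%, 10.3% and 7.44% were lower. Genes of the longest bin, which span 87.2 kb or more, thus held 416 higher and 195 lower genes, against 310 and 304 in the middle bin. Of 3354 genes with several probes above the filter, 944 were called, and for 739 of these every other probe lay on the same side of 0. Another probe was itself called the same way for 446 and the opposite way for 12. Several genes named above had a further probe that missed the call, among them CALB2 (-0.21), EPCAM (-0.09), BNIP3L (0.16), HNRNPH2 (0.10), TP53I3 (0.08), RPL36A (-0.11), ASNS (-0.08), HSF1 (-0.14), IRF7 (-0.25), P4HA1 (-0.27), EIF1AX (-0.03 and 0.09), 1 of 2 further probes of SELENOS (-0.03), EIF5 (0.09) and LSS (0.20), and all 3 of ACSL5 (-0.31, -0.24 and 0.02).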

How the data were processed

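Cytoplasmic RNA of 9 samples was hybridised to Illumina HumanWG-6 v3 arrays. According to the methods, the authors hybridised amplified RNA, imported the scans into BeadStudio, applied quantile normalisation and used lumi (version not given) and limma. The deposited value table holds these normalised intensities on the linear scale for 48803 probes, with a median of 95.2 to 95.3 on each array. Another table, with 18 columns named by slide and position, was not used because no label pairs its columns with samples, and neither were its detection p-values.

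Intensities were corrected with normexp (offset 50) and taken to log2 in limma 3.58.1 under R 4.3.3, with no further normalisation. Of the probes, 27578 had 1 gene symbol in the platform annotation, 13 several and 21212 none. Probes brighter on average than the median of all probes (log2 6.35) were kept, and the brightest probe stood for each gene, which left 13117 genes. The 6 depleted arrays were fitted with lmFit and eBayes with the experiment as a block (2 residual and 6.08 prior degrees of freedom), with Benjamini-Hochberg adjustment over all genes. Comparisons with control siRNA used all 9 arrays with the same block (4 residual and 6 prior degrees of freedom).

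The pairing comes from the experiment numbers in the titles, and the methods describe 3 separate depletion experiments. After centring each group, GANP siRNA and NXF1 siRNA arrays of 1 experiment correlated at 0.46, 0.16 and 0.36 across genes. With no replicate block 1342 genes were higher and 944 lower.

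Named genes were the transcripts the paper follows, the 12 largest rises and falls without overlap, up to 4 called members of each of 42 lists and the 5 of smallest adjusted p in each class of side. Genes outside this rule were chosen after their values were seen, and so were the genes whose promoters are printed. The comparison, lists and rule were chosen with earlier results of these data known. The fit was tested on simulated data. With 3 arrays a group, their number limits the precision.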

Additional observations from a re-analysis of the deposited data

How the results depend on the processing

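An adjusted p under 0.01 left 965 higher and 606 lower genes, and leaving out 1 experiment gave 1058 to 1682 higher and 708 to 1319 lower genes, the lowest of each without experiment 2. With no replicate block the counts were 1342 and 944, and with all 9 arrays in 1 fit 1758 and 1404. Cyclic loess, a second quantile normalisation, the authors' values without background correction, the filters, averaging probes, an intensity trend and no fold threshold gave 1462 to 1903 higher and 1249 to 1530 lower genes. No alternative reversed a named gene. Of 208 called named genes 161 kept their call under every alternative that tested them. An adjusted p under 0.01 lost 34, leaving out experiment 2 lost 31 and leaving out experiment 3 lost 16. With no replicate block 18 were lost, with all 9 arrays and no block 11, and with probes averaged 9. All 3 fits that left out an experiment shared 1499 of the genes called with all arrays. Signals near the offset understate differences, and few genes of the dimmest bin were called (3.24% and 2.97%).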

Other observations

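Probes of 1 gene disagreed in direction for 12 genes, and in all 12 the brighter probe was higher with GANP siRNA than with NXF1 siRNA while another probe was lower, both called. These genes were chosen after their values were seen. KIF1B, a kinesin, differed by 0.61 at its brighter probe and -0.48 at the other, INF2, a formin, by 0.25 and -0.68, PRMT2, an arginine methyltransferase, by 0.28 and -0.58, and RPL13, a ribosomal protein, by 0.26 and -0.57. ERAP2, an aminopeptidase that trims peptides for antigen presentation, differed by 0.63 and -0.25, and SDHC, a subunit of succinate dehydrogenase, by 0.30 and -0.40. The remaining 6 were ALAD, ANKHD1, ASCC3, CGGBP1, DCUN1D4 and MVB12B. Which transcripts these probes detect was not tested.

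Of 329 genes named ZNF, mostly zinc finger transcription factors, 39 were higher and 16 lower with GANP siRNA (11.9% and 4.86%). Both shares lay below those of all genes (13.2% and 10.5%), and the counts became 23 and 10 without experiment 2. The leading ones differed in the side that moved. ZNF425 gave 7.88, 8.10 and 8.02 with GANP siRNA, 7.18, 7.18 and 7.41 with NXF1 siRNA and 7.35, 7.16 and 7.30 with control siRNA, so that GANP siRNA lay apart. ZNF365 gave 8.73, 8.81 and 8.77 with GANP siRNA, 8.17, 7.96 and 8.05 with NXF1 siRNA and 8.88, 8.995 and 8.97 with control siRNA, so that NXF1 siRNA lay apart.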
